A study of Musca domestica with 29 samples.

Results

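Muller element A of the house fly (Musca domestica) is the chromosome called III, and the genes described here are those that the deposited tables assign to it. Of the 16540 genes and other features listed in each table, 2271 carried element A, and 2260 of these had an identifier starting with LOC. Of these 2260 genes, 1748 in abdomen and 1806 in head reached a normalized count of at least 10 in at least 3 libraries and were tested. In all, 1960 passed in either tissue, 1594 in both, 154 in abdomen only, 212 in head only and 300 in neither. They were set against 7974 tested genes of elements B to F in abdomen and 8279 in head, and every test ran over all 11486 and 12234 tested genes. The filter was passed through the female libraries alone by 18 element A genes in abdomen and 15 in head.

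The study measured poly(A) RNA of dissected abdomens and heads in 12 male libraries per tissue, with 4 genotypes of 3 replicates each, and in 2 female abdomens and 3 female heads. YM males came from strain IsoCS and were labelled as isogenic apart from the Y-linked male determiner. YM(III) males came from strain bwbCS and were labelled as differing both in YM and in 1 copy of chromosome III. IIIM #1 males (strain CS) and IIIM #2 males (strain CSrab) were labelled as isogenic apart from a chromosome III that carries the male determiner, and the females, labelled as isogenic among themselves, were 1 IsoCS and 1 CSrab fly per tissue, with a CS head besides. Each genotype is 1 strain, so a difference between 2 genotypes is a difference between 2 strains, and ages are not given in the labels.

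Flies have a small set of conserved chromosome arms, named Muller elements A to F, whose gene content is largely kept between species. Element A is the X chromosome of Drosophila melanogaster but an autosome in the house fly, where the ancestral X corresponds to the small element F. In house flies the male-determining gene can sit on different chromosomes, among them the Y and chromosome III, and a chromosome that carries it is a young sex chromosome, or proto-Y. A IIIM male carries 1 chromosome III with the determiner and 1 without it.

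The element labels held together in the reference gene order: of 1820 neighbouring pairs whose first gene was on element A, 98.02% shared the label, against 98.5% of all 10436 pairs with assigned elements. The label is named as a majority call, so neighbours may share it by construction, and this is no independent check of the assignment. Depth ran from 0.789 to 43.5 M reads (M, mega) in male abdomens and from 5.80 to 39.2 M in male heads, and YM replicate 2 and IIIM #2 replicate 2 in abdomen each held under 1 M. Female libraries held 13.9 and 30.5 M reads in abdomen and 29.0 to 29.8 M in head. The germline transcript bcd reached 78.2 and 181 normalized counts in female abdomens and at most 3.40 in male abdomens, and the neuropeptide transcript pdf ranged from 411 to 1620 in male heads and from 0 to 8.803 in male abdomens. Other markers separated the samples less: para-like, named after the Drosophila sodium channel gene para, ranged from 2169 to 5075 in male heads and from 345 to 4157 in male abdomens, IR25a from 378 to 634 and from 10.4 to 429, and yp3, a yolk protein transcript, stood at 6560 in 1 female head against 582 and 608 in the others. Their part in the results was not tested.

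The level of chromosome III as a whole was slightly lower in IIIM #2 males than in the other 3 male genotypes, in both tissues. For each library, every gene's log2(normalized count + 1) was set against the mean of the 4 male genotype means, and the median over elements B to F was subtracted from the median over element A. In abdomen the IIIM #2 libraries gave −0.040, −0.090 and −0.056, against −0.006 to 0.037 in the 9 libraries of YM, YM(III) and IIIM #1. In head the IIIM #2 libraries gave −0.029, −0.035 and −0.069, against −0.002 to 0.044 in the other 9. The IIIM #2 libraries lay below all other male libraries in each tissue, and the other 3 genotypes overlapped one another. Element E, taken the same way, lay above the other males in IIIM #2 heads, at 0.011 to 0.064, and no other combination of genotype and element among A to E separated.

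**Figure D1:**
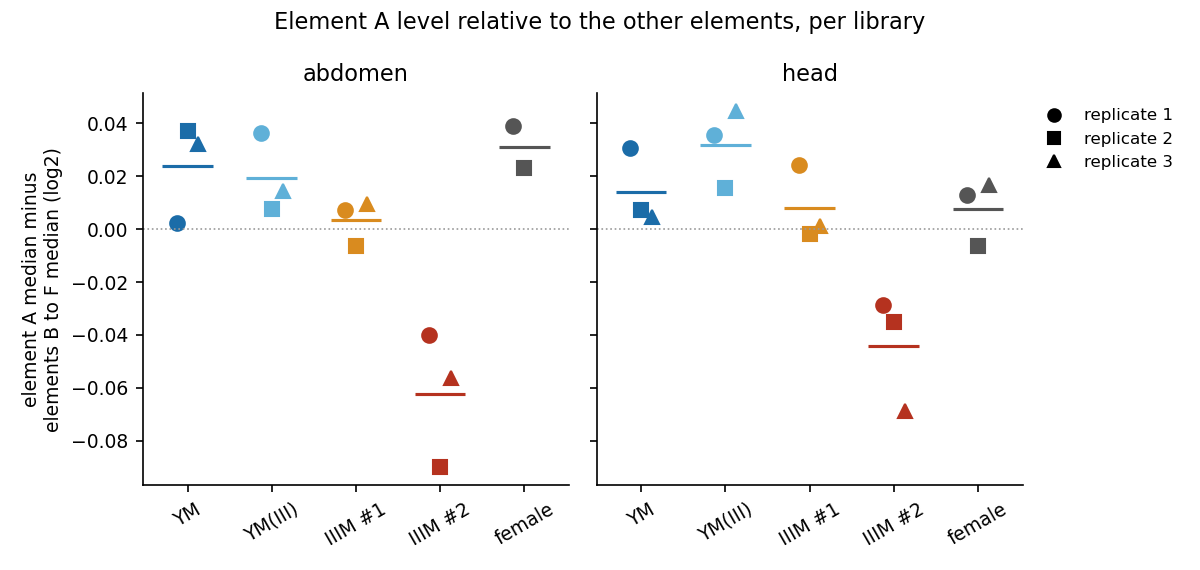
Median log2 level of element A genes minus that of elements B to F in every library, relative to the mean of the 4 male genotype means, by genotype and sex (points are libraries, bars are group means). The 3 IIIM #2 libraries sit between −0.090 and −0.029 over both tissues, below every other male library of their tissue.

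The female libraries did not lie low. They gave 0.039 (strain IsoCS) and 0.023 (CSrab) in abdomen and 0.013 (IsoCS), −0.006 (CSrab) and 0.017 (CS) in head. The CSrab female, of the IIIM #2 strain, was the lowest in each tissue, and with 1 female per strain this has no replicate check.

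Between pairs of male genotypes the same shift appeared as a small displacement of the whole distribution. The median log2 ratio of element A genes exceeded that of elements B to F by 0.061 in abdomen and 0.075 in head for IIIM #1 against IIIM #2. For YM against IIIM #2 the excess was 0.099 in abdomen and 0.055 in head, and for YM(III) against IIIM #2 it was 0.10 and 0.090. In these 6 cases the element A median was above that of each of elements B, C, D and E. All 54 pairs of single libraries gave a positive excess, although pairs that share a library are not independent. In head the excess rests partly on IIIM #2 replicate 3: without it the value was 0.025 for YM and 0.046 for IIIM #1 against IIIM #2. The size is small: 0.10 on the log2 scale is well inside the interquartile range of the element A ratios, which was 0.77 for YM(III) against IIIM #2 in abdomen.

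The 3 pairs without IIIM #2 showed less. YM exceeded IIIM #1 by 0.051 in abdomen and by 0.0008 in head, and YM(III) exceeded IIIM #1 by 0.031 and 0.028. YM against YM(III) gave 0.013 in abdomen and −0.026 in head, so the direction differed between tissues. These values were unstable: when single libraries were omitted, YM against IIIM #1 ranged from −0.0080 (without YM replicate 1) to 0.016 in head and from 0.033 (without YM replicate 3) to 0.055 in abdomen. YM(III) against IIIM #1 ranged from 0.017 (without YM(III) replicate 3) to 0.037 in abdomen and from 0.014 (without IIIM #1 replicate 2) to 0.031 in head. For both YM genotypes pooled against both IIIM genotypes the excess was 0.062 in abdomen and 0.052 in head, and 0.027 in head without IIIM #2 replicate 3. Without YM replicate 2 the abdomen value for YM against YM(III) was −0.013.

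The difference from IIIM #2 was present at each level of expression. With genes divided into 3 equal sets by their mean level, element A exceeded elements B to F in 18 of 18 combinations of tissue, level and partner of IIIM #2, by 0.031 to 0.14 on the log2 scale. In the pairs without IIIM #2 the excess was positive in 11 of 18, from −0.073 to 0.077.

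Chromosome III genes also differed more between males, in both directions, than genes of the other elements in most pairs of genotypes. The median absolute log2 ratio of element A over that of elements B to F was 1.24 in abdomen and 1.30 in head for IIIM #1 against IIIM #2. It was 1.26 and 1.19 for YM(III) against IIIM #2, 1.07 and 1.30 for YM against IIIM #2, and 1.17 and 1.161 for YM(III) against IIIM #1. The pair YM and YM(III) gave 1.05 and 1.11, and the pair YM and IIIM #1 gave the smallest values, 1.02 and 1.07. For that pair in abdomen the direction turned, to 0.985 without YM replicate 3 and 0.966 with replicates 1 and 2 only. Element A had a larger median absolute ratio than each of elements B, C, D and E in 11 of these 12 cases, the exception being YM against IIIM #1 in head, where element A stood at 0.221 and the widest other element at 0.222. Within the 3 sets by mean level, element A was wider in 17 of 18 combinations with IIIM #2 and in 15 of 18 without. In the highest set in abdomen it was narrower for YM against IIIM #2 (0.951), YM(III) (0.970) and IIIM #1 (0.914). It was also narrower in the lowest set for YM against IIIM #1 abdomens (0.943).

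In absolute terms, the median absolute log2 ratio between IIIM #1 and IIIM #2 was 0.30 for element A and 0.24 for elements B to F in abdomen, and 0.26 and 0.20 in head. More than 2-fold differences followed. Between IIIM #1 and IIIM #2 they were seen in 13.2% of element A genes and 9.37% of elements B to F in abdomen (11.5% of all tested genes), and in 7.97% and 5.12% in head (6.52% of all). Between YM(III) and IIIM #2 they were seen in 10.1% of element A genes and 6.74% of elements B to F in head (8.83% of all), and between YM and IIIM #1 in 5.70% and 5.45% (6.7% of all).

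Between the sexes the contrast was smaller in spread and had no stable direction. Male against female, element A over elements B to F was 1.00 in abdomen and 0.97 in head for the median absolute log2 ratio, and the medians differed by 0.009 and −0.004. The abdomen difference depended on level: it was −0.21, −0.026 and 0.12 in the low, middle and high sets. In head it was 0.019, −0.018 and −0.003. With genes of a mean of at least 50 only, the abdomen ratio was 1.04 and the difference of medians −0.065. That difference is as large as the one between IIIM #1 and IIIM #2 but of the opposite sign. Omitting single libraries moved the abdomen value between −0.039 (without the CSrab female) and 0.015. Against females, the element A median minus that of elements B to F was −0.067 in abdomen and −0.070 in head for IIIM #2 males, which rests on the same IIIM #2 libraries as above. It was −0.065 and −0.014 for IIIM #1 males, 0.029 and 0.002 for YM males, and −0.013 and 0.004 for YM(III) males. These comparisons share the female libraries.

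**Figure D2:**
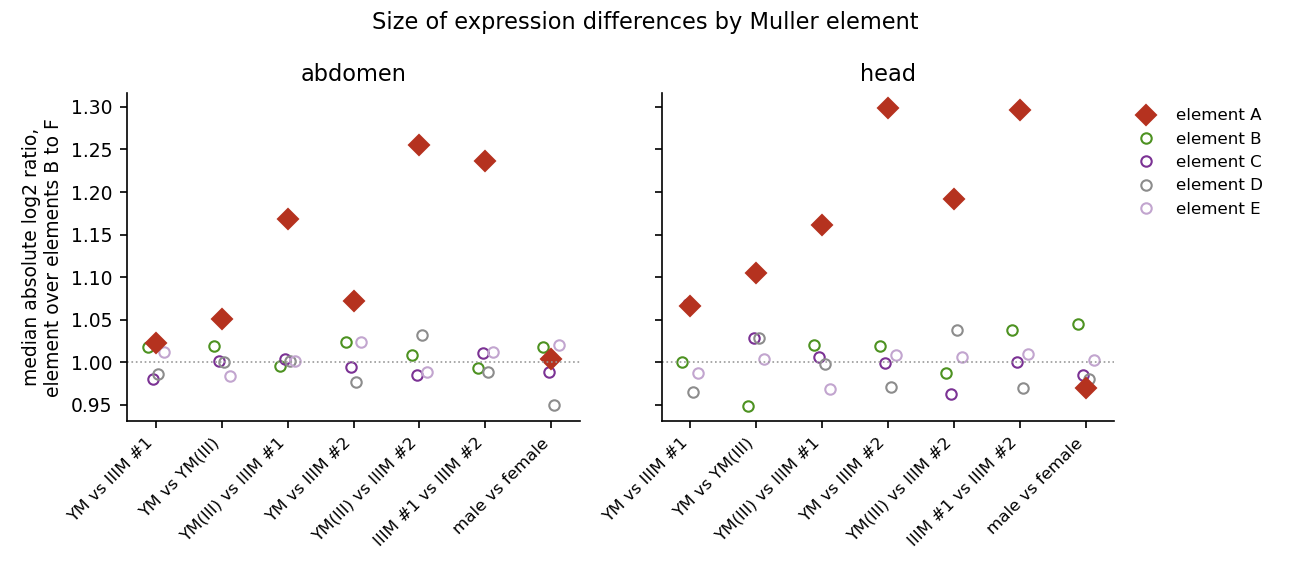
Median absolute log2 ratio of each large Muller element divided by that of elements B to F, for 6 pairs of male genotypes and for male against female, in abdomen and head (filled diamonds, element A; open circles, elements B to E). Element A reaches 1.24 and 1.30 between IIIM #1 and IIIM #2 and 1.00 and 0.97 between the sexes.

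The differences on chromosome III recurred between tissues, which share no library. Among genes tested in both tissues (1594 of element A, 7299 of elements B to F), log2 ratios of IIIM #1 against IIIM #2 in abdomen and head correlated across genes with Pearson r 0.47 and Spearman rho 0.40 for element A, against 0.25 and 0.28 for elements B to F. Single elements B to E gave r from 0.11 to 0.40 and rho from 0.24 to 0.32. Genes are not independent replicates, and the tissues share the strains and the replicate numbers, so these values are descriptions.

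By count, 56 element A genes (3.51%) differed more than 2-fold in the same direction in both tissues between IIIM #1 and IIIM #2, against 78 (1.07%) of elements B to F and 1.7% of all genes tested in both. Of the 56, 28 were higher and 28 lower in IIIM #1, and 5 other element A genes went in opposite directions. For YM(III) against IIIM #2 the count was 74 (4.64%), against 133 (1.82%) and 2.92% of all. For YM(III) against IIIM #1 it was 45 (2.82%), against 94 (1.29%) and 1.97% of all. For YM against IIIM #2 it was 70 (4.39%), against 185 (2.53%) and 3.47% of all. YM against IIIM #1 gave 24 (1.51%), which lies below both the 1.64% of elements B to F and the 2.08% of all genes. YM against YM(III) gave 74 (4.64%), against 240 (3.29%) and 4.28% of all, close to the background.

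**Figure D3:**
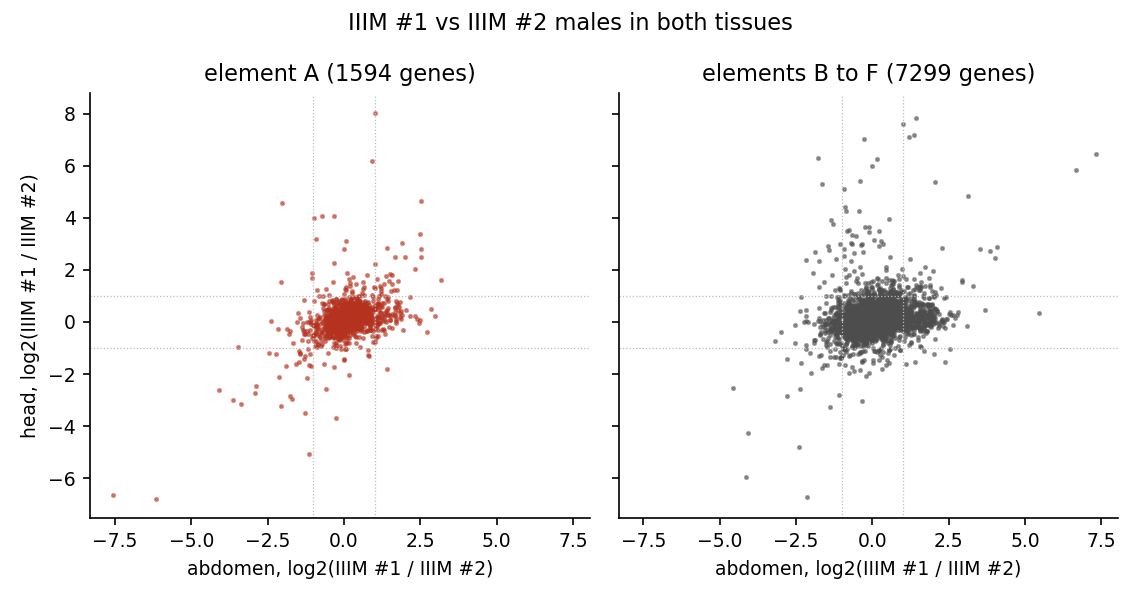
Log2 ratio of IIIM #1 over IIIM #2 males in abdomen (x axis) and head (y axis) for genes tested in both tissues, with dotted lines at 2-fold. Element A genes (left, 1594 genes, Pearson r 0.47) spread along the diagonal more than genes of elements B to F (right, 7299 genes, r 0.25), and the 2 farthest element A genes at lower left are LOC101901088 and LOC105261537.

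The correlation across genes of strain differences between males and females was lower on chromosome III than on the other elements in the 3 cases with IIIM #2, although counts of shared 2-fold differences were not lower throughout. Male ratios were set against the ratio of the single females of the same strains, which are separate libraries. In head, IIIM #1 against IIIM #2 males and the CS against the CSrab female gave r 0.005 and rho 0.23 for element A, against 0.25 and 0.30 for elements B to F. YM against IIIM #2 males and the IsoCS against the CSrab female gave r 0.079 and rho 0.19 in head, against 0.27 and 0.34, and r 0.056 and rho 0.11 in abdomen, against 0.13 and 0.21. In these 3 cases element A was the lowest of elements A to E by r and by rho. For YM against IIIM #1 in head, r was 0.21 against 0.45, but rho was 0.40 for both sets, so the gap there rests on the large ratios.

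Counted over genes with more than 2-fold differences between IIIM #1 and IIIM #2 male heads, the CS and CSrab females differed in the same direction for 80 of 144 element A genes (55.6%) and for 257 of 424 genes of elements B to F (60.6%). For YM against IIIM #2 heads the shares were 104 of 167 (62.3%) and 414 of 562 (73.7%). In abdomen they were 225 of 451 (49.9%) and 957 of 1786 (53.6%). By the count of genes more than 2-fold different in the same direction in both sexes, the order of the elements was mixed. Element A was above elements B to F for IIIM #1 against IIIM #2 heads, with 30 genes (1.66%) against 113 (1.36%), and for YM against IIIM #2 abdomens, with 67 (3.83%) against 236 (2.96%). It was below them for YM against IIIM #2 heads, with 37 (2.05%) against 229 (2.77%), and for YM against IIIM #1 heads, with 41 (2.27%) against 222 (2.68%). With 1 female per strain and tissue, the females add an error that cannot be measured.

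**Figure D4:**
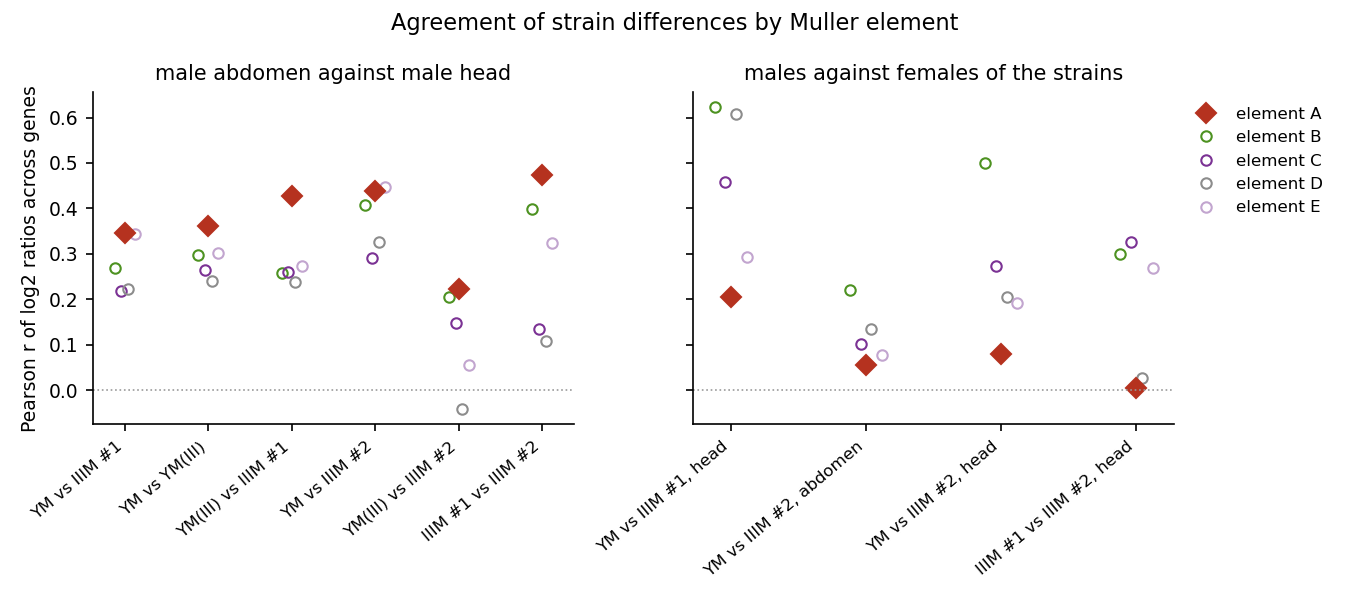
Pearson r across genes of log2 ratios, by Muller element, between male abdomen and male head (left) and between males and the females of the same strains (right). For IIIM #1 against IIIM #2, element A has the highest r between male tissues (0.47) and the lowest between male and female heads (0.005) of elements A to E.

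Gene by gene, few chromosome III genes passed the test between proto-Y types. A gene is called here when its limma p, adjusted over all tested genes by the Benjamini-Hochberg method, was under 0.05. In abdomen, limma called 0 element A genes between YM and IIIM males pooled, where 0.0261% of all tested genes were called. There were 122 at an unadjusted p under 0.05 (6.98%, against 6.46% of all), and edgeR also called 0 (0.0261% of all). Between IIIM #1 and IIIM #2 abdomens limma called 0 (0.0435% of all), with 92 at an unadjusted p under 0.05 (5.26%, against 3.27% of all), and edgeR called 0 (0.0174% of all). With a replicate block, which same-numbered libraries support for this pair, 1 was called (0.0435% of all). In head, limma called 8 element A genes between the pooled types, 4 higher and 4 lower in YM, which is 0.443% of element A and 0.474% of all tested genes. There were 22 with the replicate block (1.03% of all) and 101 without the replicate 3 libraries (4.54% of all). Omitting single libraries gave 4 (YM replicate 1, YM(III) replicate 1 or 2, or IIIM #1 replicate 2, with 0.253% to 0.327% of all) to 9 (IIIM #1 replicate 3, 0.597% of all). The pooled test counts libraries, not strains, so its error does not hold the variation between strains of a type.

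Of the 8, the rule for named genes took LOC101891225 and LOC101888295, the only pair of them with no overlap between the libraries. LOC101888295 measured 516, 493 and 671 normalized counts in YM heads and 635, 860 and 682 in YM(III) heads, against 361, 400 and 246 in IIIM #1 heads and 240, 320 and 375 in IIIM #2 heads. All 6 YM libraries lay above all 6 IIIM libraries (log2 0.99, SE 0.18, limma adjusted p = 0.04). Female heads of the IsoCS, CSrab and CS strains measured 628, 499 and 379. The call was lost when any of 11 of the 12 male libraries was left out, IIIM #2 replicate 3 being the exception.

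LOC101891225 was high in YM(III). It measured 524, 1269 and 418 in YM(III) heads, against 27.2, 22.7 and 26.0 in YM heads, 14.5, 9.05 and 6.41 in IIIM #1 heads and 6.35, 7.27 and 8.49 in IIIM #2 heads. Every YM(III) head lay far above every other male head, and the YM heads lay above the IIIM heads (pooled log2 3.81, SE 0.31, limma adjusted p = 0.000563). YM against YM(III) gave log2 −4.64 (SE 0.44, limma adjusted p = 0.000867). In abdomen YM(III) measured 235, 981 and 224, against 112 to 138 in YM, 46.0 to 85.5 in IIIM #1 and 41.2 to 79.2 in IIIM #2. Female heads measured 14.4, 10.6 and 8.90, and female abdomens 0.655 and 0.447.

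Between IIIM #1 and IIIM #2 heads, limma called 3 element A genes, all lower in IIIM #1, where 0.172% of all genes were called. With the replicate block there were 8, 2 higher and 6 lower (0.302% of all), and without the replicate 3 libraries there were 124, 75 higher and 49 lower (3.97% of all). Leaving out any single IIIM #2 library gave 1 (0.0654% to 0.147% of all), and leaving out IIIM #1 replicate 3 gave 16 (0.499% of all). LOC105261537 was the most different of these. It measured 0.963, 1.81 and 8.15 normalized counts in IIIM #1 heads, against 451, 455 and 327 in IIIM #2 heads (log2 −6.78, SE 0.57, limma adjusted p = 0.000439), a call kept under all 21 alternatives tried for it. YM and YM(III) heads lay between 4.05 and 13.7, so IIIM #2 stood apart from every other male. Abdomens showed the same, at 0, 4.29 and 0.484 in IIIM #1 and 168, 264 and 64.3 in IIIM #2. The female of the IIIM #2 strain, CSrab, did not share this: it measured 12.8 in head and 0 in abdomen, where 3 reads correspond to 1.34 normalized counts.

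LOC101899321 measured 231, 215 and 136 in IIIM #1 heads, against 531, 560 and 558 in IIIM #2 heads (log2 −1.53, SE 0.25, limma adjusted p = 0.0465). The groups did not overlap, but the call was lost under 15 of the 21 alternatives tried for it. LOC105262085 measured 4.82, 5.43 and 1.165 in IIIM #1 heads, against 57.2, 54.6 and 75.8 in IIIM #2 heads (log2 −3.86, SE 0.51, limma adjusted p = 0.0114). It had no read in any of the 3 YM(III) heads. The call was lost without any single IIIM #2 replicate, with a pseudocount of 0.1 and under edgeR.

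The 4 pairs of 1 YM and 1 IIIM genotype also gave few calls. In abdomen limma called 20 element A genes between YM and IIIM #2 (0.845% of all), 16 higher and 4 lower in YM. It called 3 between YM and IIIM #1 (0.0697% of all), 3 between YM(III) and IIIM #1 (0.183% of all) and 4 between YM(III) and IIIM #2 (0.392% of all). In head it called 20 between YM and IIIM #2 (0.858% of all), 8 higher and 12 lower in YM, 6 between YM and IIIM #1 (0.351% of all), 3 between YM(III) and IIIM #1 (0.163% of all) and 5 between YM(III) and IIIM #2 (0.482% of all).

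YM and YM(III) males, which share the Y-linked determiner and differ in strain and in 1 copy of chromosome III, gave the most calls among males in abdomen. Limma called 172 element A genes, 143 higher and 29 lower in YM, or 9.84% of element A against 8.74% of elements B to F and 9.15% of all tested genes (7.5% higher and 1.65% lower). The share on chromosome III was thus near the background. With the replicate block 376 were called (20.7% of all), 234 higher and 142 lower, so the excess of higher calls was smaller there. Without the libraries under 1 M reads 40 were called (2.29%, against 2.25% of all). Leaving out YM replicate 1 or 2 gave 41 (2.32% of all) and 58 (3.12% of all), leaving out YM(III) replicate 1 or 3 gave 80 (4.70% of all) and 87 (4.41% of all), and leaving out any other single library gave 124 to 212 (6.80% to 11.5% of all). In head, limma called 18 element A genes, 5 higher and 13 lower in YM, which is 1.00% of element A against 0.556% of elements B to F and 0.801% of all (0.204% higher and 0.597% lower), and 70 with the replicate block, 20 higher and 50 lower (3.52% of all). Without the replicate 3 libraries there were 208, 101 higher and 107 lower (10% of all), so the split was even there. Omitting single libraries gave 4 (YM(III) replicate 1, 0.237% of all) to 27 (IIIM #1 replicate 3, 1.21% of all), with 4 to 11 for each YM or YM(III) library.

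Several of the abdomen genes higher in YM were close to absent from YM(III) abdomens, and some of these also from female abdomens. LOC109612757 measured 380, 413 and 365 in YM abdomens, against 0, 2.89 and 1.64 in YM(III) abdomens (log2 7.47, SE 0.80, limma adjusted p = 0.00146). IIIM #1 abdomens measured 273, 180 and 26.6 and IIIM #2 abdomens 78.7, 44.0 and 119, so YM(III) was below every other male. Both female abdomens were at 0, and heads of either sex were at 1.35 or less. In bulk tissue, fewer cells of a type and less RNA per cell cannot be told apart.

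LOC101898834 followed the same order, at 197, 222 and 243 in YM abdomens, against 2.77, 22.2 and 2.19 in YM(III) abdomens (log2 5.08, SE 0.65, limma adjusted p = 0.00232). LOC101901084 measured 224, 145 and 131 in YM abdomens, against 5.54, 10.6 and 1.10 in YM(III) abdomens (log2 4.91, SE 0.64, limma adjusted p = 0.00252). For LOC109612757, LOC101898834 and LOC101901084, YM(III) was called below each of the other 3 male genotypes, and the calls between YM and YM(III) were kept under all 22 alternatives tried. Other genes high in YM abdomens were LOC101888899 (log2 5.002), LOC101896903 (log2 5.55), LOC101890524 (log2 4.97), LOC101889013 (log2 6.08) and LOC105261835 (log2 4.89), each called with no overlap of the YM and YM(III) libraries. Of these, LOC101896903 was also present in female abdomens, at 73.7 and 72.4, and LOC105261835 at 370 and 456, whereas LOC101890524 was at 0 in both. The calls of LOC101890524, LOC101889013 and LOC105261835 were lost without the libraries under 1 M reads.

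Among genes with a mean of at least 50, those lower in YM abdomens had smaller ratios. LOC101900872 measured 42.6, 61.3 and 48.7 in YM abdomens, against 158, 186 and 203 in YM(III) abdomens (log2 −1.83, SE 0.25, limma adjusted p = 0.00344). In heads it measured 574 to 734 in YM and 552 to 810 in YM(III), so the groups overlapped there. The other 9 genes of that mean with the largest decreases had log2 ratios from −1.99 to −1.29.

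Of the 1594 element A genes tested in both tissues, 5 were called between YM and YM(III) in the same direction in abdomen and head, where 0.242% of all genes tested in both were. LOC101900539 had the tightest values: 129, 168 and 120 in YM abdomens, against 360, 377 and 370 in YM(III) abdomens (log2 −1.41, SE 0.19, limma adjusted p = 0.00325). In heads it measured 547, 540 and 517 in YM, against 1466, 1784 and 1247 in YM(III) (log2 −1.47, SE 0.20, limma adjusted p = 0.00738). IIIM #1 and IIIM #2 heads lay between, at 772 to 1229. Their abdomens ranged from 162 to 255, overlapping YM but not YM(III). The head call was lost without YM(III) replicate 1.

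LOC101891053 measured 231, 237 and 236 in YM abdomens, against 2.77, 3.86 and 2.74 in YM(III) abdomens (log2 5.85, SE 1.29, limma adjusted p = 0.0213). In heads it measured 431, 379 and 892 in YM, against 21.3, 13.5 and 15.3 in YM(III) (log2 4.92, SE 0.82, limma adjusted p = 0.0207). Female heads divided by strain: that of the IsoCS female, the YM strain, measured 319, and those of the CSrab and CS females 0 and 16.4. In abdomen the IsoCS and CSrab females measured 6.72 and 0.447, both far below the YM males. The abdomen call was lost under 6 of 22 alternatives: without YM replicate 1 or 2 or YM(III) replicate 1 or 3, with replicates 1 and 2 only and with a pseudocount of 0.1. The head call was lost under 7 of 21: without any single YM or YM(III) library and with a pseudocount of 0.1. LOC101898330 was likewise higher in YM, by log2 5.01 in abdomen (limma adjusted p = 0.0203) and 2.50 in head (limma adjusted p = 0.0274). Its abdomen call was lost under 5 of 22 alternatives, among them without YM replicate 1 or 2. Its head call was lost under 8 of 21, among them without any single YM library and under edgeR.

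LOC101899612 was called lower in YM than in YM(III) in both tissues. It measured 76.6, 115 and 63.2 in YM abdomens, against 293, 243 and 502 in YM(III) abdomens (log2 −1.99, SE 0.43, limma adjusted p = 0.0182). In heads it measured 167, 213 and 183 in YM, against 574, 564 and 488 in YM(III) (log2 −1.53, SE 0.24, limma adjusted p = 0.0173). IIIM #1 and IIIM #2 heads lay between 357 and 871. The abdomen call was lost without YM replicate 1, without YM(III) replicate 3 and with replicates 1 and 2 only, and the head call without replicate 1 or 2 of YM or of YM(III). The IsoCS female measured 243 in head, against 951 in the CSrab female and 2696 in the CS female.

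LOC101896886 was the only element A gene for which 1 male genotype was called against the other 3 in both tissues. Its YM libraries were nearly empty: 1.42, 0 and 0.296 normalized counts in abdomen and 0, 0 and 0.490 in head. The other 9 male abdomens measured 21.2 to 71.6 and the other 9 male heads 24.1 to 59.4, with no overlap. YM had 3 reads in abdomen and 1 in head, and YM abdomen replicate 2 was too shallow to inform, since 3 reads correspond there to 23.0. From summed reads, the ratio of YM to YM(III) was 0.0089 in abdomen (exact 95% interval 0.0018 to 0.027) and 0.0084 in head (0.00021 to 0.048), intervals that cover counting error only. Fitted log2 ratios of YM to the other genotypes ranged from −4.49 to −5.39 and depend on the pseudocount (limma adjusted p = 0.00225 against YM(III) in abdomen and 0.000369 in head). The abdomen call against IIIM #1 (limma adjusted p = 0.0274) was lost with pseudocounts of 0.1 and 5, and those against IIIM #1 and IIIM #2 were lost without the libraries under 1 M reads.

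LOC101896886 also divided the females by strain, with the IsoCS female at 0.655 in abdomen and 1.96 in head. The CSrab female measured 48.7 and 230, and the CS female head 49.95. The low level thus followed the IsoCS strain in both sexes, as far as 1 female per strain shows.

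By the call against all 3 other male genotypes, 4 element A genes stood apart in abdomen (0.229%, against 0.252% of all tested genes) and 9 in head (0.498%, against 0.474% of all). With the replicate block there were 56 in abdomen (3.20%, against 3.73% of all) and 14 in head (0.775%, against 0.801% of all). In both fits the shares are near the background, although the counts differ. In the fit without the block, those in abdomen were LOC101896886 for YM and 3 genes lower in YM(III), and in head 5 genes for YM, 2 for YM(III) and 2 for IIIM #2. Limma placed no element A gene apart in IIIM #1 in either tissue. Leaving out 1 library at a time, the abdomen count was 0 without YM replicate 2, IIIM #1 replicate 1 or 2 or IIIM #2 replicate 1 or 3 (0.0174% to 0.0522% of all), 10 without IIIM #1 replicate 3 (0.557% of all) and 29 without YM(III) replicate 2 (1.94% of all). The head count was 3 without any single YM library (0.229% to 0.311% of all) and 14 without IIIM #1 replicate 3 (0.638% of all).

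**Figure D5:**
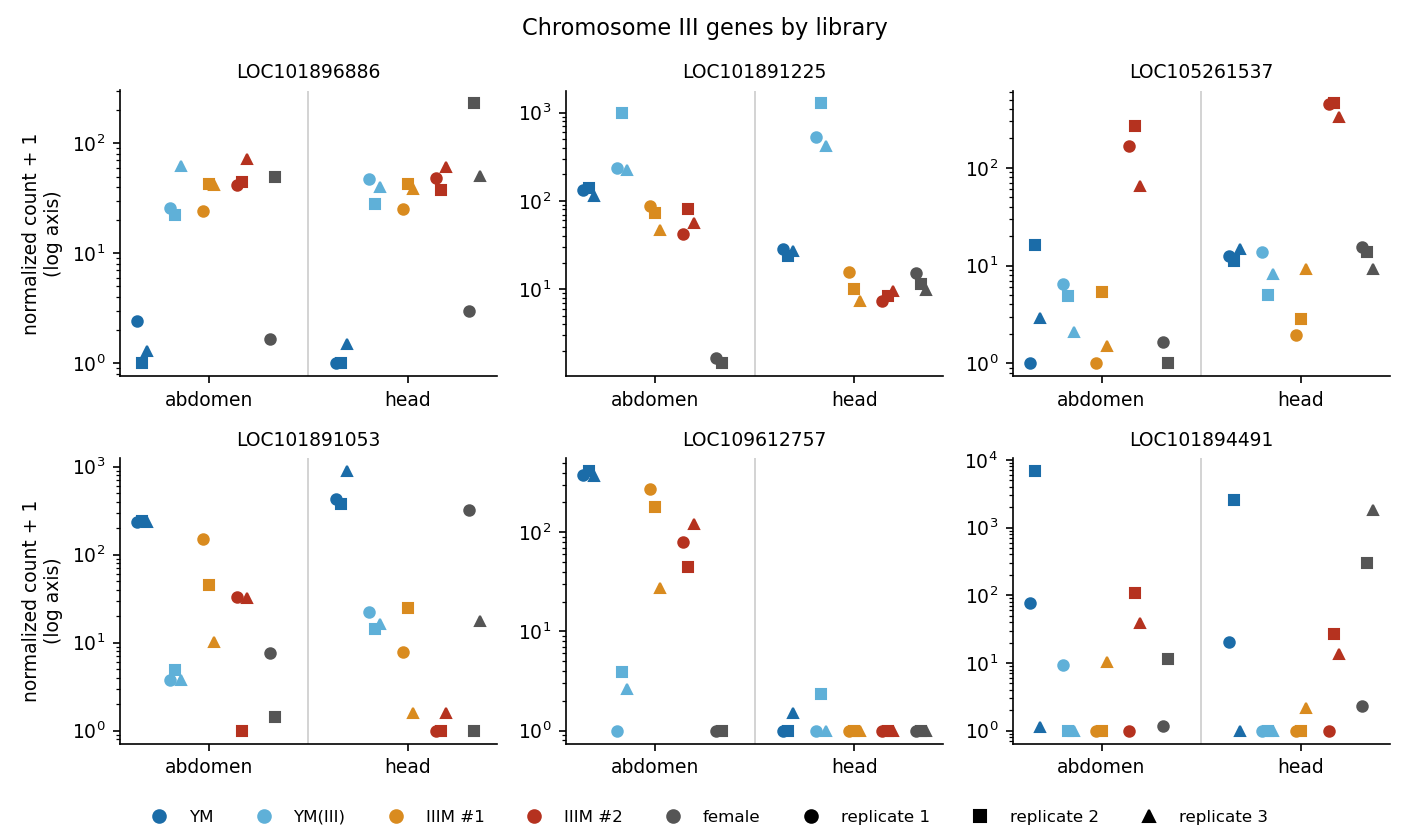
Normalized count + 1 (log axis) of 6 element A genes in every library, by genotype and sex, with abdomen left and head right in each panel. LOC101896886 is near 0 in YM and in the IsoCS female (female replicate 1), LOC105261537 is high in IIIM #2 males alone, and LOC101894491 differs between YM replicates by orders of magnitude in the same order in both tissues.

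A rule of size, with no test and chosen after values were seen, gave other counts. It took genes more than 2-fold higher, or more than 2-fold lower, in 1 genotype than in each of the other 3, by mean log2 values and in both tissues. YM(III) was higher for 11 element A genes (0.690%), against 6 (0.082%) of elements B to F and 0.28% of all genes tested in both tissues, and lower for 4 (0.251%, against 0.164% and 0.251%). Some of the 11 were low: LOC109613756 and LOC101896119 had mean normalized counts of 12.6 and 26.0 in abdomen, and LOC101893367 had 5.86 in head. In abdomen, 3 reads correspond to 23.0 in YM replicate 2 and to 26.4 in IIIM #2 replicate 2. Others were higher in both tissues, such as LOC101891225 (157 and 158) and LOC109614229 (126 and 313). How far counting error enters the count of 11 was not tested. IIIM #2 was higher for 5 (0.314%, against 0.0959% of elements B to F and 0.145% of all) and lower for 9 (0.565%, against 0.219% and 0.319%). YM was higher for 10 (0.627%, against 0.493% and 0.57%) and lower for 4 (0.251%, against 0.301% and 0.406%). Among these 10, LOC101894491, LOC101893804 and LOC101896897 differed between YM replicates by orders of magnitude, so their means rest on part of the YM libraries. LOC101893804 and LOC101896897 were also among the 4 lower in YM(III). IIIM #1 was higher for 0 (0.029% of all) and lower for 1 (0.00967% of all).

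The single gene lower in IIIM #1, LOC101901088, was also one of the 5 higher in IIIM #2. It measured 9.24, 6.01 and 426 normalized counts in IIIM #1 abdomens, against 5255, 4014 and 9799 in IIIM #2 abdomens. In heads it measured 3.85, 3.62 and 560 in IIIM #1, against 1963, 1880 and 3471 in IIIM #2. IIIM #1 replicate 3 was far above replicates 1 and 2 in both tissues, yet below every IIIM #2 library. YM and YM(III) males, at 204 to 2279 in abdomen and 221 to 1761 in head, lay below every IIIM #2 library and overlapped IIIM #1 replicate 3.

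LOC101889416, another gene higher in IIIM #2, measured 227, 246 and 585 in IIIM #2 abdomens, against 2.77 to 76.7 in the other 9 male abdomens. In heads it measured 124, 87.3 and 396, against 8.09 to 69.9, so no library overlapped. Among genes lower in IIIM #2, LOC101889810 measured 1911, 2535 and 4615 in IIIM #2 heads, against 4568 to 11703 in the other male heads, with 1 IIIM #2 library inside that range. The CSrab female head had 30742, below the 94409 of the IsoCS female and the 63751 of the CS female.

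Strain females shared part of these lists. All 4 genes lower in YM were also lower in the IsoCS female than in the other females, in both tissues, but only 1 of the 10 genes higher in YM was higher in the IsoCS female in both. Of the 9 genes lower in IIIM #2, 6 were lower in the CSrab female in both tissues, and of the 5 higher genes, 1 was higher. These counts hold for these 28 genes and were not tested, and some of the 10 genes higher in YM differed widely between YM replicates.

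Between the sexes, most chromosome III genes differed in abdomen, as on the other elements. Limma called 1260 element A genes in abdomen, 648 higher and 612 lower in males, which is 72.1% against 72.3% of elements B to F and 71.3% of all genes (39% higher and 32.4% lower). In head it called 293, 104 higher and 189 lower in males, which is 16.2% against 17.1% of elements B to F and 16.5% of all (6.41% higher and 10.1% lower). With 2 female abdomens and 3 female heads, the female error rests on few libraries. Leaving out any single female lowered the head count. It was 135 without the IsoCS female (7.48%, against 8.12% of all), 125 without the CSrab female (6.92%, against 7.24%) and 138 without the CS female (7.64%, against 7.89%). Using replicates 1 and 2 only raised the head count to 835 (46.2%, against 45.4% of all).

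Among the genes higher in male abdomens, several had no read in either female abdomen. LOC101889114 ranged from 39.4 to 3545 over the 12 male abdomens, with a median of 892 and a mean of 1319. That mean was at least 3667-fold higher than the floor of 3 reads over both females (limma adjusted p = 2.18e-06). LOC101888152 ranged from 25.7 to 3024 with a median of 1202, and its male mean of 1310 was at least 3643-fold higher (limma adjusted p = 8.7e-06). The lowest male library of both genes was YM(III) replicate 3. LOC101896325, LOC109611858, LOC101891631 and LOC101894721 also had no female read, with lower bounds for the male mean of 3672-fold, 3267-fold, 2976-fold and 2085-fold. In male heads LOC101889114 reached 6.74 and LOC101888152 reached 1.47.

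Genes lower in male abdomens included LOC101890831, at 0 to 102 in male abdomens with a median of 2.44, against 5666 and 16153 in female abdomens (log2 −10.65, SE 1.44, limma adjusted p = 4.24e-05). LOC101891006 ranged from 0 to 80.3 in male abdomens, against 3764 and 15599 in female abdomens (log2 −10.53, SE 1.75, limma adjusted p = 0.000209). The highest values in any head were 7.19 for LOC101890831 and 5.89 for LOC101891006.

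Other genes were low in males in both tissues. LOC101889640 ranged from 1.79 to 111 in male abdomens, against 4676 and 7124 in female abdomens (log2 −8.87, SE 1.06, limma adjusted p = 1.57e-05). In heads it ranged from 0 to 13.5 in males, against 2506, 2723 and 11105 in females (log2 −10.72, SE 0.68, limma adjusted p = 3.34e-06). LOC105261940 was lower in male heads (log2 −7.15, SE 0.69, limma adjusted p = 6.78e-05) and in male abdomens (log2 −4.08, SE 0.80, limma adjusted p = 0.000695). LOC101889984 had log2 −6.45 in abdomen (limma adjusted p = 0.000612) and −5.53 in head (limma adjusted p = 0.000559). LOC101892946 was higher in males in both tissues, with 171 to 792 in male heads, against 105, 83.0 and 118 in female heads (log2 2.10, SE 0.57, limma adjusted p = 0.0253). In abdomen the gene was low, at 0 to 24.9 in males with a median of 6.27, and the sexes overlapped (log2 2.53, limma adjusted p = 0.0189). In IIIM #2 abdomen replicate 2, 3 reads correspond to 26.4. The head call of LOC101892946 was lost without any single female and its abdomen call without either.

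Other genes had strong sex differences in head. LOC101898930 ranged from 16.4 to 171 in male heads, against 5789, 4193 and 6041 in female heads (log2 −5.90, SE 0.51, limma adjusted p = 3.45e-05). LOC101889810 ranged from 1911 to 11703 in male heads, against 94409, 30742 and 63751 in female heads (log2 −3.20, SE 0.33, limma adjusted p = 0.000104). LOC101896270 was higher in males, at 3428 to 9180 in male heads, against 1218, 2218 and 1219 in female heads (log2 2.14, SE 0.26, limma adjusted p = 0.000267). None of these male and female head ranges overlapped. In abdomen, LOC101889810 went the other way, at 1250 to 21071 in males, against 3100 and 410 in females (log2 2.48, limma adjusted p = 0.027), with overlapping ranges. LOC101898930 did not pass there (log2 0.23, limma adjusted p = 0.739), and LOC101896270 was too low in abdomen to be tested, at 13.8 or less.

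Sex differences of chromosome III genes in abdomen and head were largely unrelated. Across the 1594 genes tested in both tissues, r was 0.01 and rho −0.04, against −0.09 and −0.10 for elements B to F. Limma called 104 genes in the same direction in both tissues, 31 higher and 73 lower in males (5.55% of all genes tested in both were), and 91 in opposite directions (7.51% of all).

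Chromosome III took a smaller share of reads in male than in female abdomens. The share was 10.3% to 12.7% in male abdomens, against 14.2% and 14.4% in female abdomens, and 10.8% to 12.5% in male heads, against 12.5% to 12.8% in female heads. Without the 10 genes of largest female excess, chosen after values were seen, the means were 10.7% in male and 11.6% in female abdomens, and 10.98% in male and 10.96% in female heads. Dropping genes for their female excess lowers the female share by construction, and genes of male excess were kept. LOC101887550, for example, took 0.520% of reads in male and 0.0254% in female abdomens. These means therefore do not show whether few genes carry the difference. Shares of reads were not computed for the other elements, so whether the difference is particular to chromosome III was not tested.

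The authors' deposited table gives its own comparisons, with log2 fold changes of the strain named first over the second and adjusted p-values. In heads it calls 161 of 1829 element A genes between IIIM #2 and IIIM #1 (8.803%) and 5.11% of elements B to F. In abdomens the authors' deposited table calls 2.56% and 1.42%. Limma here called 3 element A genes in heads of this pair (0.166%) and 0 in abdomens. Why the counts differ was not tested. Between IIIM #1 and YM heads the authors' deposited table calls 2.49% of element A genes and 2.89% of elements B to F, and in abdomens of the same pair 4.95% and 4.26%. For IIIM #2 and YM the authors' deposited table calls 5.20% and 3.47% in heads and 5.70% and 4.46% in abdomens. For YM(III) and YM the authors' deposited table calls 8.72% and 6.40% in heads and 10.5% and 9.13% in abdomens. Limma here called 0.997% of element A in heads of that last pair and 9.84% in abdomens. The median log2 in the authors' deposited table for IIIM #2 over IIIM #1 on element A is −0.083 in abdomen and −0.028 in head.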

How the data were processed

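Libraries were made with a stranded poly(A) kit from individually dissected flies, per the labels' protocols, in 29 libraries. Per the submitters' processing notes the tools were HTSeq 0.9.1, DESeq2 1.16.1, CASAVA 1.8 and HISAT2 0.12.2. No source used here names the genome build. The deposited tables hold normalized counts (read counts scaled by the authors to a library size factor, used here as a signal), together with the authors' log2 fold changes and adjusted p-values. Dividing each library by its smallest step recovered whole reads for 100% of values (tolerance 0.001 reads), and edgeR 4.0.16 ran on these reads as an alternative.

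Genes that reached a normalized count of 10 in 3 or more libraries entered limma 3.58.1 (R 4.3.3, trend and robust) on log2(normalized count + 1), so fold changes of low genes are understated. Male genotypes were compared in a fit to the 12 males of each tissue, and the sexes in a fit to all of its libraries, with the mean of the 4 male genotype means. P-values were adjusted by Benjamini-Hochberg over all tested genes (threshold 0.05), and the scripts were tested on simulated data. Genes whose identifier did not start with LOC entered the tests but not element A. Named genes were those called with a mean of at least 50, no overlap between the compared libraries and the largest ratios, those called in both tissues, and those with 1 genotype apart in both tissues. Comparisons with 3 or fewer calls name all of them. Genes and lists were chosen with earlier results of these data known, and genes outside this rule are described as chosen after values were seen.

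Same-numbered libraries deviated together: the lowest correlation of their deviations was 0.279 over all head comparisons, 0.150 for YM and YM(III) abdomens and 0.155 for IIIM #1 and IIIM #2 abdomens, but 0.0732 for YM and IIIM #2 abdomens. The pairing comes from these values, since the labels do not say what a shared number means. Of the tested element A genes, 91.9% in abdomen and 90.6% in head matched the reference gene table, which gave neighbour order only. Intervals and floors of 3 reads cover counting error only. Alternatives were TMM factors, other filters and pseudocounts, the replicate block, replicates 1 and 2 only, no libraries under 1 M reads (M, mega), each library left out and edgeR.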

Additional observations from a re-analysis of the deposited data

Results flagged for a closer look

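For 57 element A genes, males and females differed in opposite directions in abdomen and head, each called by limma with no overlap between the male and female libraries in either tissue. That is 3.58% of the 1594 element A genes tested in both tissues, below the 5.34% of elements B to F and the 5.01% of all genes tested in both, so the pattern is not more frequent on element A. Of these, 37 were higher in male abdomens and lower in male heads, and 20 were the reverse. LOC101894750 was the most different in head: it ranged from 10.6 to 46.5 normalized counts in male heads, against 704, 687 and 682 in female heads, and from 44.3 to 674 in male abdomens, against 25.4 and 10.3 in female abdomens. LOC101894800 went the other way, with log2 −1.86 in abdomen and 1.06 in head. The difference between the tissues was not tested.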

How the results depend on the processing

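None of the 88 calls of named genes reversed under any alternative run, but many were lost. Without YM replicate 1 or 2, 24 were lost each time, and without YM(III) replicate 1, 21 were lost. Without the libraries under 1 M reads 13 abdomen calls were lost. The excess (below) changed sign for YM against YM(III) in abdomen, YM against IIIM #1 in head and, in both tissues, sex. Depth limits low genes most in the abdomens under 1 M reads. Below, "excess" is the element A median log2 ratio minus that of elements B to F, and "spread" is its median absolute log2 ratio over theirs. Where a value moved, the cause was not tested.

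With the replicate block, abdomen calls were 5 (pooled types, 0.287% of all tested genes), 376 (YM against YM(III), 20.7% of all) and 1 (IIIM #1 against IIIM #2, 0.0435% of all). In head they were 22 (1.03% of all), 70 (3.52% of all) and 8 (0.302% of all). Genes apart numbered 56 in abdomen (3.73% of all) and 14 in head (0.801% of all), and all 88 calls of named genes were kept. With replicates 1 and 2 only, IIIM #1 against IIIM #2 abdomens gave 2 calls (0.0697% of all). Heads gave 101 (4.54% of all), 208 (10% of all), 124 (3.97% of all) and, for sex, 835 (45.4% of all). Genes apart numbered 9 in abdomen (0.453% of all) and 105 in head (4.41% of all). The excess was 0.013 for YM and 0.011 for YM(III) against IIIM #1 abdomens, and the spread was 0.966 for YM against IIIM #1 abdomens and 1.41 for IIIM #1 against IIIM #2 heads. Without libraries under 1 M reads, YM against YM(III) abdomens gave 40 calls (2.25% of all) and an excess of −0.013. YM(III) against IIIM #2 gave an excess of 0.072, and 0 genes stood apart (0.0174% of all).

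With no filter, pooled abdomens gave 1 call (0.0894% of all). The excess was 0.0029 for YM against YM(III) and 0.063 for YM against IIIM #2 abdomens, and the spread 1.11 for YM(III) against IIIM #1 abdomens and 1.03 for sex. With a mean of at least 50, heads gave 5 (0.393% of all), 10 (0.614% of all) and 1 calls (0.141% of all). Genes apart numbered 1 in abdomen (0.153% of all) and 5 in head (0.342% of all). The excess was −0.065 for sex and 0.036 for YM against IIIM #1 abdomens. The spread was 1.01 (YM against YM(III)), 1.29 (IIIM #1 against IIIM #2), 1.10 (YM(III) against IIIM #1) and 1.04 (sex) in abdomen. A pseudocount of 5 gave 1 call for IIIM #1 against IIIM #2 abdomens (0.0435% of all) and 7 genes apart in abdomen (0.313% of all). A pseudocount of 0.1 gave 1 call for IIIM #1 against IIIM #2 heads (0.123% of all). It gave 0 genes apart in abdomen (0.0435% of all) and 5 in head (0.335% of all). TMM factors gave 2 apart in abdomen (0.209% of all). EdgeR gave 1 apart in abdomen (0.0784% of all) and 1 call for IIIM #1 against IIIM #2 heads (0.0981% of all). It gave an excess of 0.029 for YM against IIIM #1 abdomens and a spread of 1.24 for YM(III) against IIIM #2 heads.

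Leaving out 1 library at a time in abdomen, calls ranged from 0 to 1 for the pooled types (0.00871% to 0.0871% of all). They ranged from 41 to 212 for YM against YM(III) (2.32% to 11.5% of all). For IIIM #1 against IIIM #2 they ranged from 0 to 2 (0.00871% to 0.104% of all). Calls for sex in abdomen ranged from 966 to 1282 (55.4% to 72.8% of all). There the excess ranged from 0.056 to 0.076 (the pooled types), −0.013 to 0.025 (YM against YM(III)), 0.049 to 0.068 (IIIM #1 against IIIM #2), −0.039 to 0.015 (sex), 0.033 to 0.055 (YM against IIIM #1), 0.081 to 0.11 (YM against IIIM #2), 0.017 to 0.037 (YM(III) against IIIM #1) and 0.072 to 0.12 (YM(III) against IIIM #2). The spread there ranged from 1.03 to 1.08 (the pooled types), 1.01 to 1.08 (YM against YM(III)), 1.12 to 1.24 (IIIM #1 against IIIM #2), 0.991 to 1.01 (sex), 0.985 to 1.05 (YM against IIIM #1), 1.04 to 1.09 (YM against IIIM #2), 1.07 to 1.17 (YM(III) against IIIM #1) and 1.14 to 1.28 (YM(III) against IIIM #2). Genes apart there ranged from 0 to 29 (0.0174% to 1.94% of all). Leaving out 1 library at a time in head, calls ranged from 4 to 9 for the pooled types (0.253% to 0.597% of all). They ranged from 4 to 27 for YM against YM(III) (0.237% to 1.21% of all). For IIIM #1 against IIIM #2 they ranged from 1 to 16 (0.0654% to 0.499% of all). Calls for sex in head ranged from 125 to 373 (7.24% to 21.1% of all). There the excess ranged from 0.027 to 0.062 (the pooled types), −0.041 to −0.0061 (YM against YM(III)), 0.046 to 0.090 (IIIM #1 against IIIM #2), −0.014 to 0.0028 (sex), −0.0080 to 0.016 (YM against IIIM #1), 0.025 to 0.089 (YM against IIIM #2), 0.014 to 0.031 (YM(III) against IIIM #1) and 0.065 to 0.11 (YM(III) against IIIM #2). The spread there ranged from 1.11 to 1.21 (the pooled types), 1.05 to 1.17 (YM against YM(III)), 1.15 to 1.30 (IIIM #1 against IIIM #2), 0.955 to 0.996 (sex), 1.05 to 1.07 (YM against IIIM #1), 1.12 to 1.30 (YM against IIIM #2), 1.09 to 1.20 (YM(III) against IIIM #1) and 1.15 to 1.27 (YM(III) against IIIM #2). Genes apart there ranged from 3 to 14 (0.229% to 0.638% of all).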

Other observations

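Some element A genes among those higher in YM differed more between YM replicates than between genotypes, in the same order in abdomen and head; they were chosen after their values were seen. LOC101894491 measured 75.2, 6830 and 0.148 normalized counts in YM abdomens and 19.4, 2561 and 0 in YM heads, for replicates 1, 2 and 3. LOC101893804 measured 332, 16746 and 0.740 in YM abdomens and 155, 4415 and 0.490 in YM heads. LOC101896897 measured 10690, 17389 and 5.03 in YM abdomens and 3839, 6657 and 14.2 in YM heads. Female heads also varied widely: for LOC101896897 the IsoCS, CSrab and CS females measured 22.9, 2093 and 4277. The labels do not say whether libraries of the same number came from the same fly.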
